A study of Aspergillus cristatus with 9 samples.

Results

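The response of the golden flower fungus *Aspergillus cristatus* (deposited as *Eurotium cristatum*, strain JLU) to roots of *Panax notoginseng* was described from 3 libraries of fungus grown on the roots (EcSQ1, EcSQ2 and EcSQ3) and 3 libraries of fungus without root contact (EcCK1, EcCK2 and EcCK3). These are 6 of the 9 libraries in the series, and the other 3 (EcRS) are from fungus on *P. ginseng* roots. The deposited table lists 10227 genes, of which 9160 were kept because they averaged 1 FPKM or more over the 6 libraries (FPKM are mapped fragments scaled to transcript length and to library depth). All groups began from plates of potato dextrose agar grown for 10 days. For EcSQ and EcRS, sterilised roots were inoculated from these plates and fungus was collected after 1 week at 28 °C. The labels name pieces of culture as the inoculum and the study's methods name spores. The labels call all samples mycelium with an age of 1 week, while the study's methods say that EcCK were spores taken from plates, so that growth stage, medium and root contact cannot be told apart. Whether replicate libraries derive from independent cultures is not stated in the labels, so p-values here measure the spread between libraries only, which may be technical.

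*A. cristatus* is a filamentous fungus of the Eurotium group that tolerates dry, sugar-rich substrates and forms yellow fruiting bodies on fermented tea. On plant tissue such fungi secrete cellulases, xylanases, pectinases and feruloyl esterases, which cut the polymers of the plant cell wall, and amylases, which release glucose from starch. Growing hyphae extend their own wall with glucan-modifying enzymes and need ribosomes for protein synthesis, whereas resting spores hold stores of trehalose and chaperone transcripts.

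Library EcSQ3 stood apart from EcSQ1 and EcSQ2. Listed genes received in sum an estimated count between 53961809 and 55542113 in EcSQ and between 56398194 and 61627866 in EcCK, so that every EcSQ total was somewhat below every EcCK total. Across the 9160 genes the correlation of log2(FPKM + 1) was 0.951 between EcSQ1 and EcSQ2, 0.781 between EcSQ1 and EcSQ3 and 0.856 between EcSQ2 and EcSQ3. EcSQ3 reached 0.916 to 0.927 with the EcRS libraries, EcSQ1 0.842 to 0.857 and EcSQ2 0.889 to 0.910. EcSQ1 was closer to EcCK3 (0.868) than to EcSQ3, and EcSQ3 had 0.635 to 0.707 with EcCK. Whether EcSQ3 was mislabelled or taken at another stage than EcSQ1 and EcSQ2 was not tested and cannot be told from the labels, and values of EcSQ3 are those of the library labelled EcSQ3. A gene at 1 FPKM or more was listed 9265, 8727 and 7440 times in EcSQ1, EcSQ2 and EcSQ3, against 8942 to 8976 times in EcCK. The 10 most abundant genes held 7.88%, 9.54% and 17.5% of the counts in EcSQ1, EcSQ2 and EcSQ3, against 15.6%, 11.1% and 7.80% in EcCK1, EcCK2 and EcCK3. The EcCK libraries also differed from each other, with correlations from 0.880 to 0.975. Results are therefore given by library, and the tests with and without EcSQ3.

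To find which genes changed on *P. notoginseng* roots, EcSQ were compared with EcCK by the quasi-likelihood test of edgeR on the estimated counts. A gene was called at a Benjamini-Hochberg adjusted p of at most 0.05 and a fold change of at least 2. Of the 9160 genes 158 rose (1.72%) and 171 fell (1.87%) in EcSQ, 3.59% together. Without EcSQ3 the same fit called 912 genes up (9.96%) and 616 down (6.72%), and these included all 158 and all 171. With TMM factors, which rescale libraries to a shared majority of genes, the counts were 431 up (4.71%) and 449 down (4.9%), together 9.61%, and 148 of the 158 and 140 of the 171 were among them. The calls needed particular libraries. Leaving out EcCK1 or EcSQ2 left 0 genes called by edgeR in either direction, with 1164 and 1300 genes at an unadjusted p under 0.05, and leaving out EcCK2 left 1 up and 3 down. DESeq2 on all 6 libraries called 1274 up and 1036 down.

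Agreement was then read from the single libraries, with no test. A library counted as shifted where its FPKM was at least 2-fold from the EcCK mean, with 1 FPKM added to both, and outside the range of the EcCK libraries. All 3 EcSQ libraries were shifted upward for 561 genes (6.12%) and downward for 753 (8.22%). EcSQ1 and EcSQ2 alone agreed on 642 higher genes (7.01%) and 66 lower genes (0.721%). For comparison, EcSQ1 and EcSQ3 alone shared 139 higher and 39 lower genes, and EcSQ2 and EcSQ3 alone shared 163 higher and 973 lower genes. In EcSQ3 alone 369 genes were higher and 3066 lower. The balance followed the scaling of the libraries. The median log2 library ratio over all genes was 0.40 in EcSQ1, -0.02 in EcSQ2 and -1.16 in EcSQ3, and with FPKM rescaled by TMM factors 272 genes were higher and 279 lower in EcSQ1 and EcSQ2 alone, while all 3 agreed on 588 higher and 870 lower genes.

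**Figure D1:**
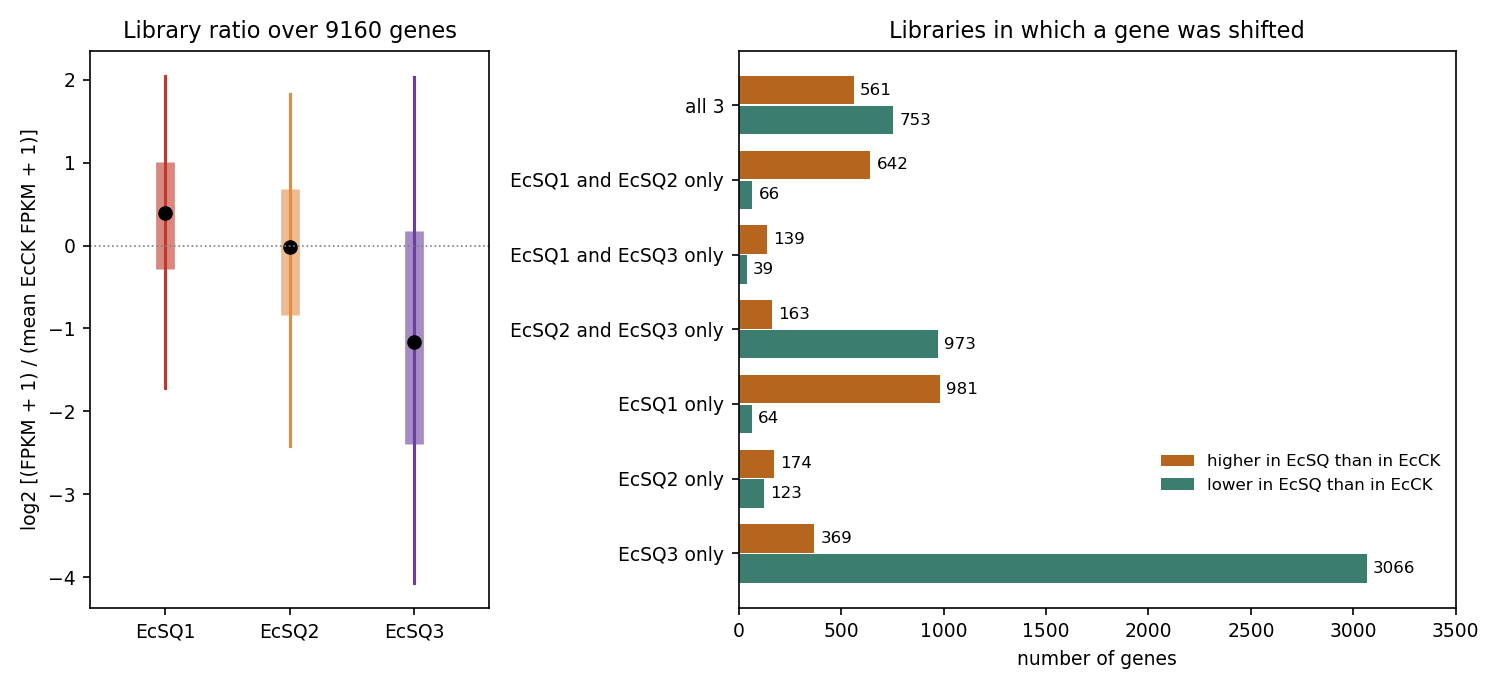
Left, the log2 library ratio of each EcSQ library to the mean of EcCK over 9160 genes, with the median as a point, the middle 50% of genes as a bar and the 5th to 95th percentile as a line. Right, the number of genes shifted in each combination of EcSQ libraries, higher or lower than EcCK. Genes lower in EcSQ3 alone (3066) formed the longest bar, and EcSQ1 and EcSQ2 alone shared many more higher genes (642) than lower ones (66).

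The calls fell almost wholly on genes that all 3 EcSQ libraries shared. Of the 158 genes called up, 154 agreed in all 3 libraries, 1 agreed only in EcSQ1 and EcSQ2 and 3 agreed in EcSQ2 and EcSQ3. All 171 genes called down agreed in all 3. The classes and the test read the same values, so this is a description and no independent check. EcSQ lay wholly above EcCK for 1312 genes (14.3%) and wholly below it for 1622 (17.7%). Among the called genes 120 of the 158 and 151 of the 171 are described only as hypothetical proteins.

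Enzymes that degrade the plant cell wall were the list with the largest share of called genes among the 30 lists examined. Of its 30 tested members 8 rose (26.7%, against 1.72% of all genes) and 0 fell (against 1.87%), and the median log2 fold change was 1.45, against -0.01 over all genes. Endoglucanase A (SI65_09823, contig 21, 223183 to 224067), which cuts cellulose chains internally, had 1447, 566 and 223 FPKM in EcSQ1, EcSQ2 and EcSQ3, against 0.958, 2.88 and 6.90 FPKM in EcCK1, EcCK2 and EcCK3. Every EcSQ library was above every EcCK library, and the gene rose by 7.69 ± 1.09 on the log2 scale (SE, adjusted p = 0.0206). Xylanase C (SI65_04327, contig 3, 2954868 to 2956357), which cuts the xylan backbone, was listed at 94.5, 63.0 and 45.1 FPKM in EcSQ, against 0.418, 0.0891 and 0.164 in EcCK. It rose by 8.15 ± 0.92 (adjusted p = 0.018), and every control was under 1 FPKM. Xylanase B (SI65_05244) rose by 5.05 ± 0.89 and endopolygalacturonase I (SI65_10113), a pectin-cutting enzyme, by 6.57 ± 0.91, both in all 3 libraries.

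Further members carried a cellulase term without a gene name. SI65_07774 had 138, 144 and 236 FPKM in EcSQ, against 0.837, 1.27 and 1.08 FPKM in EcCK, and it had the lowest adjusted p of all genes (0.00648, log2 fold change 7.34 ± 0.62). Its level was highest in EcSQ3, unlike that of endoglucanase A, the xylanases and the polygalacturonase, which were lowest in EcSQ3 among the EcSQ libraries. SI65_09820 and SI65_08847, which carry a cellulose-binding term as well, rose by 6.59 ± 1.12 and 4.81 ± 0.94. Feruloyl esterase A (SI65_09821), which frees phenolic acids from xylan and pectin, was called up with 24.2, 12.1 and 4.03 FPKM in EcSQ, against 0, 0.0422 and 0 FPKM in EcCK. It lies between SI65_09820 and endoglucanase A on contig 21, and these genes span positions 216497 to 224067. No fold is given for the esterase, since its counts in EcCK were near 0.

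The rest of the list divided by library or did not pass the test. 6 members were shifted upward in EcSQ1 and EcSQ2 alone (20.0%, against 7.01% of all genes), and 10 in all 3 (33.3%, against 6.12%). Feruloyl esterase B-2 (SI65_07023) had 51.5, 44.8 and 4.71 FPKM in EcSQ, against 1.09, 2.77 and 6.06 FPKM in EcCK, so that EcSQ3 fell inside the EcCK range. Its log2 fold change was 3.35 ± 1.01 with all libraries (adjusted p = 0.0965) and 3.86 ± 0.63 without EcSQ3 (adjusted p = 0.00469). 2 members were lower in all 3 EcSQ libraries (6.67%, against 8.22% of all genes). The xylosidase xlnD (SI65_02741), which releases xylose from short xylan fragments, had 19.6, 15.9 and 3.67 FPKM in EcSQ, against 98.3, 123 and 43.1 FPKM in EcCK, with a log2 fold change of -2.75 ± 0.72 (adjusted p = 0.0682). The arabinanase SI65_07365 had 15.8, 12.5 and 3.00 FPKM, against 66.7, 66.6 and 69.0 FPKM in EcCK (adjusted p = 0.0657). Without EcSQ3 both were called down, at an adjusted p of 0.0152 and 0.00669, and 14 members were called up, where 9.96% of all genes were. Leaving out EcSQ1 gave 8 called up and leaving out EcCK3 gave 5, where 111 and 41 of all 9160 genes were called up. Leaving out EcCK2 left 1 member called up, and leaving out EcSQ2 or EcCK1 left 0.

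Starch-degrading enzymes on contig 1 rose together. A glucoamylase (SI65_00176, 460042 to 462149), which releases glucose from chain ends, had 496, 428 and 166 FPKM in EcSQ, against 4.30, 7.96 and 10.4 FPKM in EcCK (log2 fold change 5.59 ± 0.68, adjusted p = 0.018). The neighbouring acid alpha-amylase (SI65_00177, 463204 to 465453), which cuts starch internally, had 197, 112 and 155 FPKM, against 1.04, 3.27 and 5.59 FPKM in EcCK, and rose by 5.55 ± 0.74. The glucoamylase SI65_00180 nearby had 72.3, 43.4 and 21.9 FPKM, against 0.592, 1.07 and 2.08 FPKM in EcCK, and rose by 5.20 ± 0.82. These were the 3 members of the starch and sucrose list that rose, out of 71 tested (4.23%, against 1.72% of all genes). Another 3 fell (4.23%, against 1.87%), and the list's median log2 fold change was -0.47. Without EcSQ3, 10 members were called up and 6 down, against 9.96% and 6.72% of all genes. The 44 tested beta-glucosidases and other sugar-cleaving enzymes gave 1 call up (2.27%) and 0 down, with 6 members higher in EcSQ1 and EcSQ2 alone (13.6%, against 7.01% of all genes). Beta-glucosidase M (SI65_10009), which cleaves terminal glucose, was among these, with 49.5, 62.5 and 13.3 FPKM in EcSQ and 6.83, 12.3 and 12.9 FPKM in EcCK. It did not pass the test with EcSQ3 (adjusted p = 0.129) and passed without it (0.00572).

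Genes of the fungal cell wall gave more calls up than any other of the lists. Of 118 tested members 11 rose (9.32%, against 1.72% of all genes) and 3 fell (2.54%, against 1.87%), with a median log2 fold change of 0.56. Without EcSQ3 the counts were 25 and 7, where 9.96% of all genes were called up and 6.72% down. Members that rose included glucanosyltransferases, which splice and elongate the beta-1,3-glucan of the wall. Gel1 (SI65_07291) had 1209, 2201 and 3955 FPKM in EcSQ, against 228, 279 and 329 FPKM in EcCK, and rose by 3.14 ± 0.59 (adjusted p = 0.0297). Both genes described as gel4 rose too, SI65_00449 by 2.82 ± 0.64 and SI65_08640 by 2.47 ± 0.51. In each of the 3 the level was highest in EcSQ3 and lowest in EcSQ1, and with TMM factors their adjusted p was 0.0503, 0.0578 and 0.0587. Some of the members that moved have other functions. They include the acid alpha-amylase above, the Cu-Zn superoxide dismutase SI65_03875, which removes superoxide (log2 fold change 2.54 ± 0.50), and hob1 (SI65_09785), an actin-patch protein in yeasts, which fell (-2.68 ± 0.49).

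Gel2 (SI65_05119) was the only called gene that agreed in EcSQ1 and EcSQ2 but not in EcSQ3. It had 571, 695 and 21.4 FPKM in EcSQ, against 10.6, 17.3 and 17.3 FPKM in EcCK. EcSQ1 and EcSQ2 were far above the controls, whereas EcSQ3 was above the highest of them by less than 2-fold. The log2 fold change was 4.83 ± 1.09 (adjusted p = 0.0471) and without EcSQ3 it was 5.39 ± 0.48 (adjusted p = 0.00058). Thus gel1 and both gel4 genes were highest in the library in which gel2 was lowest.

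**Figure D2:**
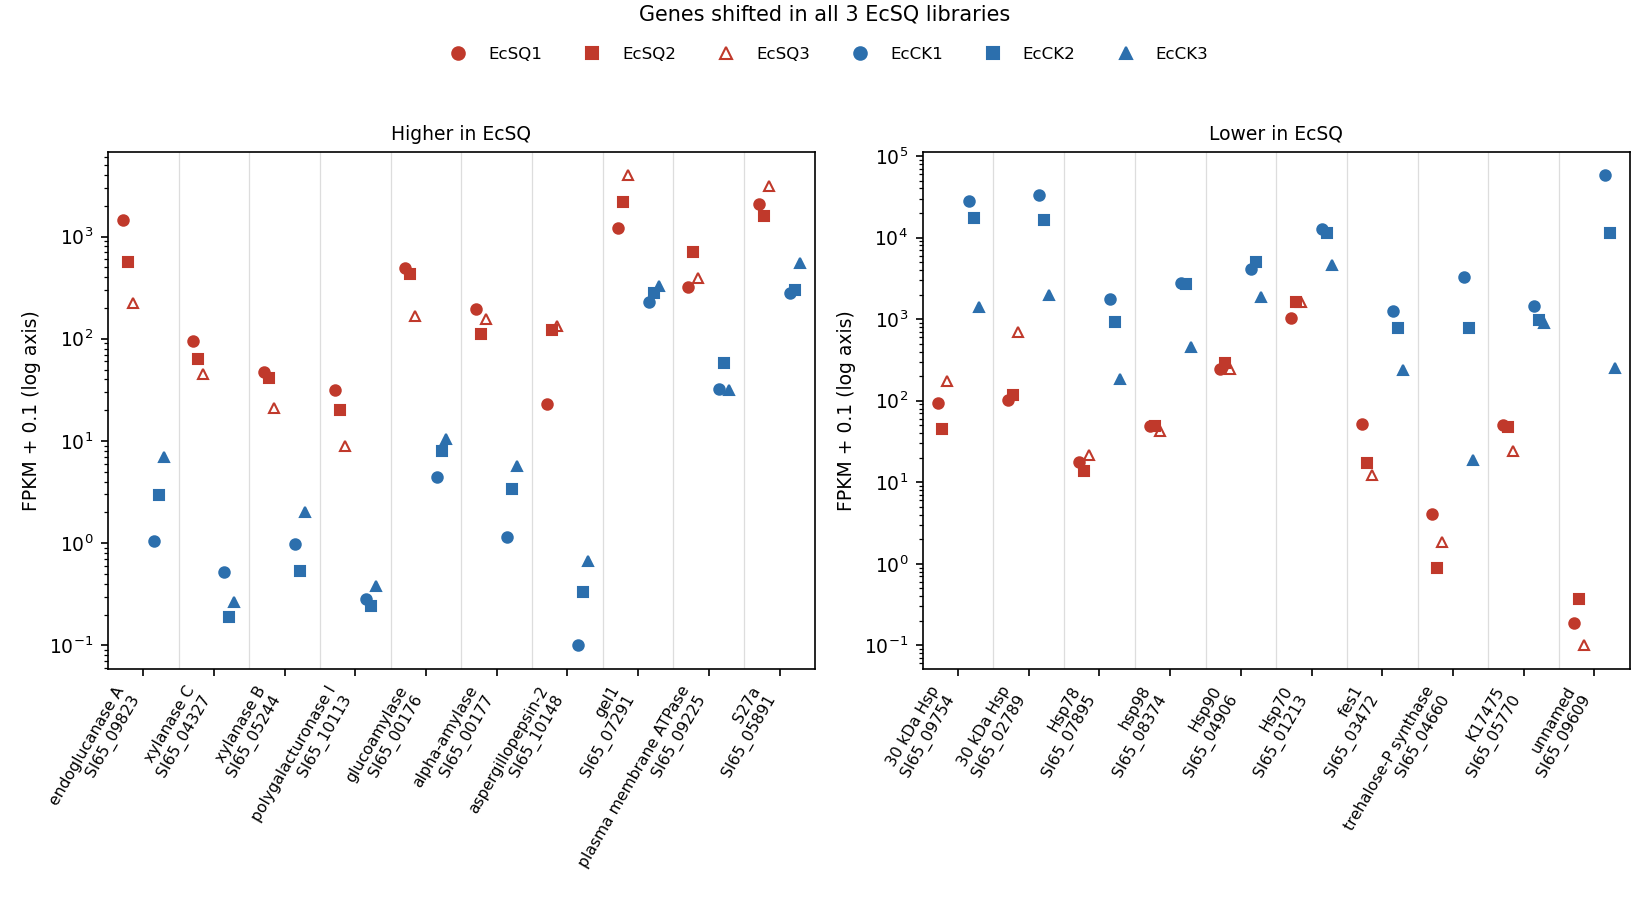
FPKM + 0.1 on a log axis of 20 genes shifted in all 3 EcSQ libraries, each symbol 1 library, EcSQ in red (EcSQ3 open) left of EcCK in blue. For the genes in the left panel every EcSQ library lies above every EcCK library, and for those in the right panel every EcSQ library lies below, while EcCK3 is the lowest EcCK library for all 10 genes there.

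Other secreted and membrane proteins rose as well. Aspergillopepsin-2 (SI65_10148), a secreted acid protease, had 23.1, 122 and 133 FPKM in EcSQ, against 0, 0.232 and 0.576 FPKM in EcCK (log2 fold change 8.39 ± 1.5, adjusted p = 0.0261). EcSQ1 was the lowest EcSQ library for this gene, as it was for SI65_03921, annotated with acyl-CoA dehydrogenase activity, which had 10.8, 186 and 170.1 FPKM, against 0, 0.139 and 0.341 FPKM in EcCK. The plasma membrane ATPase SI65_09225, the proton pump that drives nutrient uptake, had 321, 701 and 396 FPKM in EcSQ, against 32.0, 57.4 and 31.8 FPKM in EcCK, and rose by 3.55 ± 0.56 (adjusted p = 0.0206). A Cyanovirin-N domain lectin (SI65_09249, contig 17) had 1482, 837 and 865 FPKM, against 12.2, 14.2 and 45.0 FPKM in EcCK, and its near neighbour SI65_09252, also with a carbohydrate-binding term, had 210.3, 325 and 111 FPKM, against 1.55, 1.09 and 2.52 FPKM in EcCK. The lectins rose by 5.48 ± 0.72 and 6.95 ± 0.81, and every EcSQ library was many times above the highest EcCK library in both cases.

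The most abundant transcript in EcSQ had no function in the table. SI65_07419, a hypothetical protein of contig 9 (204997 to 205542), had 23729, 16910.3 and 74803 FPKM in EcSQ1, EcSQ2 and EcSQ3, against 83.7, 468 and 100.3 FPKM in EcCK1, EcCK2 and EcCK3. It rose by 7.47 ± 1.12 (adjusted p = 0.0206), and EcSQ3 was well above EcSQ1 and EcSQ2. SI65_10010, also a hypothetical protein, rose by 5.02 ± 0.70 with 5499, 10691 and 4959 FPKM, against 101, 308 and 240.4 FPKM in EcCK, and here EcSQ3 was the lowest.

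Cytosolic ribosomal proteins were divided between the classes. Of 70 tested genes 4 rose (5.71%, against 1.72% of all genes) and 0 fell, 23 were higher in all 3 EcSQ libraries (32.9%, against 6.12% of all genes) and 25 were higher in EcSQ1 and EcSQ2 alone (35.7%, against 7.01%). The median library ratio of the list was 1.56 in EcSQ1, 1.31 in EcSQ2 and 0.21 in EcSQ3, against 0.40, -0.02 and -1.16 over all genes. In each library the list thus lay above the median of all genes. Whether its split between the classes holds with rescaled FPKM was not tested. With TMM factors 14 members were called up and 1 down, where 4.71% and 4.9% of all genes were. S27a (SI65_05891), made as a fusion with ubiquitin, had 2065, 1579 and 3107 FPKM in EcSQ, against 278, 297 and 547 FPKM in EcCK, and rose by 2.59 ± 0.53 (adjusted p = 0.0353). S22 (SI65_08306) rose by 2.45 ± 0.51, S25 (SI65_08245) by 2.35 ± 0.52 and L29 (SI65_01693) by 2.31 ± 0.51. An L30e-like protein (SI65_01432) had 944, 848 and 105 FPKM in EcSQ, against 101, 124 and 207 FPKM in EcCK, so EcSQ1 and EcSQ2 were above all controls and EcSQ3 was among them. L2 (SI65_03130) had 1498, 1405 and 681 FPKM, against 251, 296 and 507 FPKM in EcCK, with EcSQ3 above the controls but under 2-fold from their mean. Their adjusted p values were 0.15 and 0.0916 with EcSQ3 and 0.00436 and 0.0161 without it. Without EcSQ3, 36 of the 70 were called up and 1 down, against 9.96% and 6.72% of all genes, and 0 were called by edgeR without EcSQ1. Ribosome biogenesis genes gave 1 call up of 92 (1.09%), with median library ratios of 0.84, 0.20 and -1.26 in EcSQ1, EcSQ2 and EcSQ3.

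On the FPKM scale as deposited, respiratory genes were one of the few lists in which EcSQ3 stood with EcSQ1 and EcSQ2. Relative to the median of all genes they stood highest in EcSQ3. The median library ratios of the 94 tested oxidative phosphorylation genes were 0.79, 0.62 and 0.83 in EcSQ1, EcSQ2 and EcSQ3, against 0.40, -0.02 and -1.16 over all genes. In EcSQ3, 45 of them were shifted upward and 14 downward, where 13.45% and 52.74% of all genes were. Few passed the test, with 2 called up (2.13%, near the 1.72% of all genes) and 0 down. The called genes are the plasma membrane ATPase above and an inorganic pyrophosphatase (SI65_10315, 1258, 1676 and 1741 FPKM in EcSQ, against 141, 204 and 425 FPKM in EcCK), neither of which belongs to the respiratory chain itself. The 42 TCA cycle genes gave 0 calls in edgeR, with 13 shifted upward and 10 downward in EcSQ3, against 13.45% and 52.74% of all genes.

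Ergosterol and terpenoid backbone genes gave 5 calls up (5.15%, against 1.72% of all genes) and 1 down (1.03%, against 1.87%) among 97 tested. Without EcSQ3 the counts were 16 and 5, against 9.96% and 6.72% of all genes. Hydroxymethylglutaryl-CoA synthase (SI65_05826), an early step of the mevalonate pathway, had 1118, 2323 and 2468 FPKM in EcSQ, against 288, 466 and 396 FPKM in EcCK, and rose by 2.36 ± 0.53 (adjusted p = 0.0467, and 0.0707 with TMM factors). Diphosphomevalonate decarboxylase (SI65_03241), a later step, rose by 2.57 ± 0.52 (adjusted p = 0.0353). The step after it, isopentenyl-diphosphate isomerase (SI65_05138), belonged to the class of EcSQ1 and EcSQ2 alone, with 2401, 1880.1 and 75.1 FPKM in EcSQ and 215, 418 and 1025 FPKM in EcCK. EcSQ3 was below all controls here, the log2 fold change was 1.39 ± 1.03 (adjusted p = 0.492), and the controls themselves differed by 4.76-fold.

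Heat shock and protein folding genes gave more calls down than any other of the lists. Of 105 tested members 12 fell (11.4%, against 1.87% of all genes) and 1 rose (0.952%, against 1.72%), and without EcSQ3 the counts were 17 and 9, against 6.72% and 9.96% of all genes. Most of the list was not called (92 members), and its median log2 fold change was -0.15, against -0.01 over all genes. In all 3 EcSQ libraries 20 members were lower (19.0%, against 8.22%) and 5 higher (4.76%, against 6.12%). In EcSQ1 and EcSQ2 alone 12 were higher (11.4%, against 7.01%) and 2 lower (1.9%, against 0.721%). The small heat shock proteins, which hold unfolding proteins in a soluble state, changed most. The 30 kDa heat shock protein SI65_09754 had 93.5, 45.1 and 174 FPKM in EcSQ1, EcSQ2 and EcSQ3, against 28283, 17258 and 1409.7 FPKM in EcCK1, EcCK2 and EcCK3, and fell by 7.23 ± 1.21 on the log2 scale (SE, adjusted p = 0.0218). Another gene described as a 30 kDa heat shock protein, SI65_02789, had 103, 117 and 691 FPKM, against 33109.9, 16399 and 1969 FPKM in EcCK, with a log2 fold change of -5.82 ± 1.26 (adjusted p = 0.0425, and 0.0825 with TMM factors). SI65_03073, assigned to the Hsp20 family in KEGG, gave a log2 fold change of -6.50 ± 1.06. All of the controls were above all EcSQ libraries in these genes, and EcCK3 was by far the lowest control.

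The large chaperones fell as well. Hsp98 (SI65_08374), which pulls proteins out of aggregates, had 48.5, 48.5 and 42.2 FPKM in EcSQ, against 2743, 2682 and 453 FPKM in EcCK (log2 fold change -5.40 ± 0.80, adjusted p = 0.0206). Its mitochondrial relative Hsp78 (SI65_07895) fell by 5.77 ± 0.88 and Hsp90 (SI65_04906), a chaperone of signalling proteins, by 3.82 ± 0.60. Fes1 (SI65_03472), a nucleotide exchange factor of Hsp70, had 51.3, 17.2 and 12.3 FPKM, against 1262, 775 and 240.3 FPKM in EcCK, and fell by 4.82 ± 0.85. An Hsp70 (SI65_01213) had 1036, 1599.6 and 1640.4 FPKM, against 12606, 11479 and 4602 FPKM in EcCK, with a log2 fold change of -2.75 ± 0.62 (adjusted p = 0.0471) that did not pass with TMM factors (0.163). The ribosome-bound Hsp70 SSB1 (SI65_04873), which assists nascent chains, was the 1 member that rose (2.31 ± 0.52, adjusted p = 0.0477, and 0.0529 with TMM factors), with 431, 517 and 736 FPKM in EcSQ and 89.9, 74.7 and 174 FPKM in EcCK.

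A pair of genes annotated to trehalose synthesis, picked from the called members of the starch and heat shock lists, fell as well. Trehalose protects dormant fungal cells against heat and drying. Trehalose-phosphate synthase SI65_04660 had 3.94, 0.780 and 1.74 FPKM in EcSQ, against 3308, 772 and 18.6 FPKM in EcCK. It fell by 9.30 ± 1.79 (adjusted p = 0.0298), although the controls spanned 178-fold among themselves. SI65_06216, whose annotation names both the synthase and the phosphatase activity, had 84.4, 68.9 and 23.6 FPKM, against 788, 1050.1 and 306 FPKM in EcCK, and fell by 3.60 ± 0.70 (adjusted p = 0.0316). It is one of the 12 heat shock list members that fell, by its annotation.

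The deepest falls were in genes that also varied most between controls. SI65_09609, a hypothetical protein and the most abundant transcript of EcCK on average, had 0.0874, 0.265 and 0 FPKM in EcSQ, against 57669, 11529.9 and 254 FPKM in EcCK1, EcCK2 and EcCK3 (adjusted p = 0.0206). SI65_09562 was at 0 in all EcSQ libraries, against 3346, 818 and 14.9 FPKM in EcCK. The EcCK mean of 1393 FPKM was 10415-fold above a floor of 3 counts (0.134 FPKM). That mean rested mostly on EcCK1, and EcCK3 was much nearer the floor. Of the 171 genes called down, 75 had their highest control value in EcCK1 and their lowest in EcCK3 (43.9%, against 13.3% of all genes). With 1 FPKM added, 26 of the 171 spanned 10-fold or more among the controls, as did 104 of all 9160 genes. The count was 0 for the 158 genes called up. Genes with controls near 0 cannot reach 10-fold on this measure, so the directions are not compared by it. The part of the differences between controls in the falls was not tested. Other falls came with even controls. SI65_05770, an iron-binding oxidoreductase by its annotation, lies in an unbroken run of 5 genes of contig 5 (SI65_05768 to SI65_05772) that were all lower in all 3 EcSQ libraries. It had 50.7, 47.4 and 24.3 FPKM, against 1443, 988 and 901 FPKM in EcCK, and fell by 4.77 ± 0.57 (adjusted p = 0.018).

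The 642 genes that were higher in EcSQ1 and EcSQ2 alone had median library ratios of 1.70 in EcSQ1, 1.46 in EcSQ2 and -0.22 in EcSQ3. In EcSQ3, 228 of them lay within the range of the controls and 179 were shifted downward. Only 1 was called with all libraries and 417 were called without EcSQ3, where 16.7% of all genes were called. The choice of the class largely fixes this count. A KEGG pathway entry was attached to 296 of them (46.1%), against 34.8% of all tested genes and 195 of the 561 genes shared by all 3 (34.8%). On contig 13 the neighbours SI65_08569 and SI65_08570 showed the pattern most plainly. SI65_08570, annotated with O-methyltransferase activity and placed in the same KEGG pathway entry as SI65_05770 (staurosporine biosynthesis), had 1580.2, 1737 and 42.4 FPKM in EcSQ, against 110.2, 166 and 153 FPKM in EcCK. SI65_08569, a hypothetical protein, had 3694, 4113 and 198 FPKM, against 172, 186 and 131 FPKM in EcCK. For both, EcSQ1 and EcSQ2 were far above every control. EcSQ3 was just above the controls for SI65_08569 and below them for SI65_08570, and the log2 fold changes were 4.03 ± 0.97 for SI65_08569 (adjusted p = 0.0551) and 2.97 ± 1.04 for SI65_08570 (adjusted p = 0.141).

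Uptake and assimilation genes also appeared in this class. An amino-acid permease (SI65_08016), which imports amino acids, had 149.8, 179 and 4.56 FPKM in EcSQ, against 50.2, 61.2 and 91.4 FPKM in EcCK. Cysteine synthase (SI65_04304), which fixes sulphide into cysteine, had 57.1, 48.1 and 2.12 FPKM, against 13.6, 20.0 and 31.7 FPKM in EcCK. Both were above all controls in EcSQ1 and EcSQ2 and below all of them in EcSQ3. Their log2 fold changes over all libraries were 0.72 ± 0.96 (adjusted p = 0.746) and 0.72 ± 0.97 (adjusted p = 0.748), and the direction turned with limma on log2(FPKM + 1). Of the 94 tested genes for arginine and polyamines 15 were in this class (16.0%, against 7.01% of all genes) and 1 was higher in all 3 libraries (1.06%, against 6.12%). An agmatine deiminase gene by its KEGG entry (SI65_07647), an enzyme of polyamine metabolism, was in no class, with 6217, 5605 and 120.4 FPKM in EcSQ and 2352, 3273 and 3465 FPKM in EcCK. EcSQ1 and EcSQ2 lay above all controls, EcSQ1 alone by 2-fold or more over their mean, and EcSQ3 lay far below them (adjusted p = 0.882).

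The 66 genes that were lower in EcSQ1 and EcSQ2 alone had median library ratios of -1.66 in EcSQ1, -1.53 in EcSQ2 and -0.48 in EcSQ3, and 44 of them lay within the control range in EcSQ3. The mitochondrial folding pair was among them. Hsp60 (SI65_04159) had 383, 656 and 1255 FPKM in EcSQ, against 1877, 1934 and 881 FPKM in EcCK, and its partner Hsp10 (SI65_05178) had 698, 866 and 2403 FPKM, against 2779.6, 3222 and 1473 FPKM in EcCK. Polyubiquitin (SI65_00774, described as Ubi4p), which supplies ubiquitin under stress in yeast, had 2169, 2706 and 5523 FPKM, against 11349, 6753 and 2781 FPKM in EcCK. In all of these EcSQ3 was the highest EcSQ library and lay between the controls. None passed the test, with adjusted p values of 0.368, 0.435 and 0.435. Catalase B (SI65_05982), which breaks down hydrogen peroxide, had 6.32, 3.69 and 26.5 FPKM, against 26.6, 15.0 and 6.46 FPKM in EcCK, with the EcSQ and EcCK values spread over nearly the same range when EcSQ3 was included. Phosphoenolpyruvate carboxykinase (SI65_07180), a step of gluconeogenesis, had 257, 378 and 541 FPKM, against 525, 1441 and 1309.5 FPKM in EcCK, so that EcSQ3 just entered the control range.

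**Figure D3:**
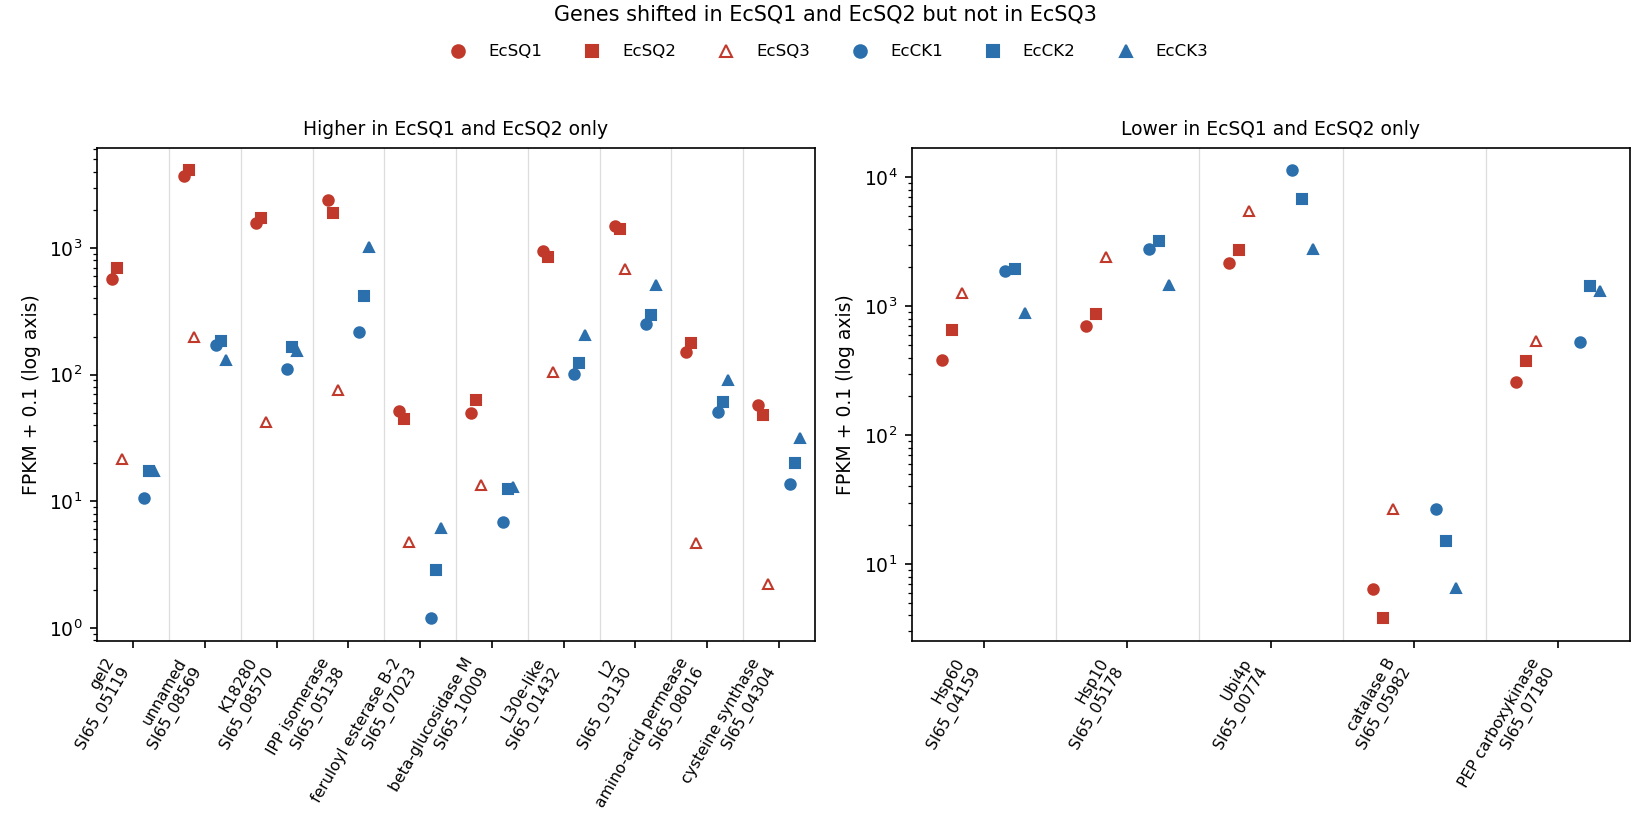
FPKM + 0.1 on a log axis of 15 genes shifted in EcSQ1 and EcSQ2 but not in EcSQ3, each symbol 1 library, EcSQ in red (EcSQ3 open) left of EcCK in blue. In the left panel the filled red symbols lie above the blue ones while the open triangle lies among or below them except for gel2, SI65_08569, beta-glucosidase M and L2. In the right panel the open triangle lies above both filled red symbols for all 5 genes.

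Across the 30 lists the order of the libraries was nearly constant. The median ratio of a list was lower in EcSQ3 than in EcSQ1 for 27 of the 30. All genes together had a median of 0.40 in EcSQ1 and -1.16 in EcSQ3. Most lists would therefore show this order whatever their function, and it is no result about the lists. The exceptions were oxidative phosphorylation, the TCA cycle and the fungal cell wall, with 0.83, 0.22 and 0.26 in EcSQ3, against 0.79, 0.16 and 0.26 in EcSQ1. The lists with the highest median ratio in EcSQ1 were plant cell wall degradation (1.95), the cytosolic ribosome (1.56) and the proteasome (0.92). In EcSQ3 the lowest were starch and sucrose metabolism (-1.99), oxygenases of fatty acids (-1.82) and fatty acid degradation (-1.81). The largest list, 329 genes of sugar and solute transport, gave 7 calls up (2.13%, against 1.72% of all genes) and 9 down (2.74%, against 1.87%). Of its members 21 were higher in all 3 libraries (6.38%, against 6.12%) and 23 in EcSQ1 and EcSQ2 alone (6.99%, against 7.01%), shares near those of all genes, while 49 were lower in all 3 (14.9%, against 8.22%). RNA polymerase II transcription factors gave 0 calls up and 3 down in edgeR among 184 (1.63%, against 1.87% of all genes), with 22 lower in all 3 libraries (8.22% of all genes were). The pH-response factor pacC (SI65_05949), which activates alkaline-expressed genes in aspergilli, is not on that list and was lower in all 3 libraries, with 3.51, 2.96 and 0.128 FPKM in EcSQ and 12.2, 24.6 and 9.58 FPKM in EcCK (adjusted p = 0.174, and 0.0219 without EcSQ3). 

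**Figure D4:**
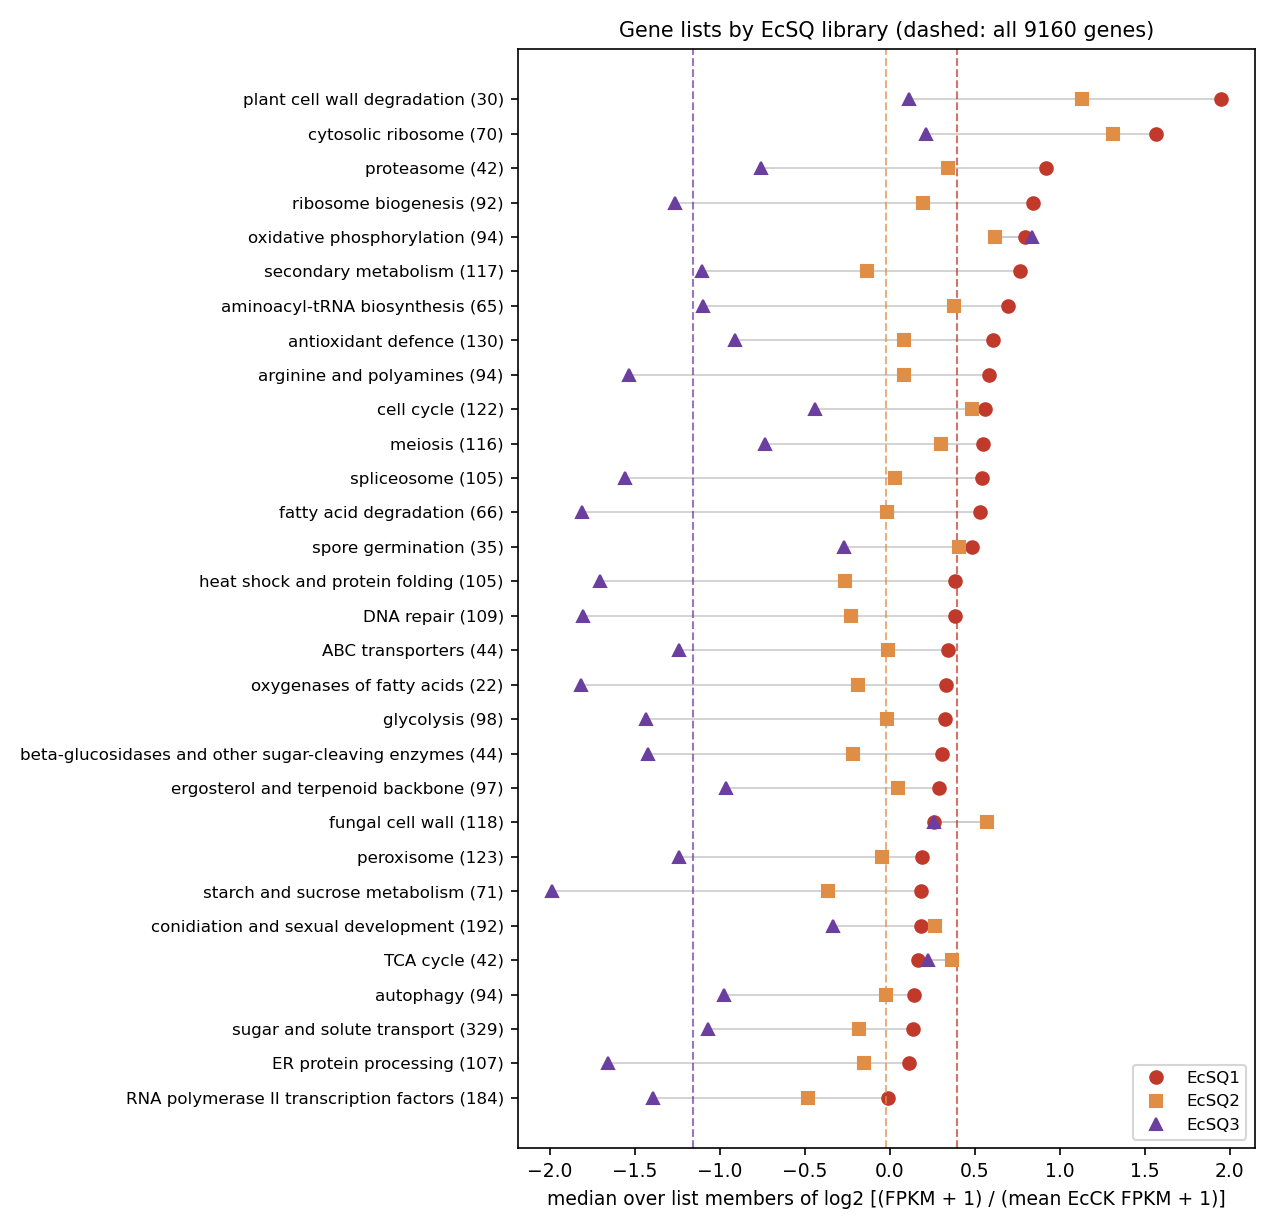
Median over the tested members of each of 30 gene lists of the log2 library ratio to the mean of EcCK, 1 symbol per EcSQ library, with the number of tested members in brackets. Dashed lines mark the medians over all 9160 genes (0.40, -0.02 and -1.16). EcSQ3 lies left of EcSQ1 for most lists, and close to EcSQ1 for oxidative phosphorylation, the TCA cycle and the fungal cell wall.

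Secondary metabolism gave 5 calls in each direction among 117 tested genes (4.27% each, against 1.72% up and 1.87% down over all genes). Without EcSQ3 it gave 22 up and 8 down, against 9.96% and 6.72% of all genes, and 16 members were higher in EcSQ1 and EcSQ2 alone (13.7%, against 7.01%). Among those called up were 3 genes that share a KEGG entry for a dioxygenase of gibberellins, diterpenoid hormones of plants. SI65_04501 had 1151, 1696 and 762 FPKM in EcSQ, against 13.9, 82.5 and 46.9 FPKM in EcCK, and rose by 4.65 ± 0.76 (adjusted p = 0.0206). SI65_07460 had 9.07, 55.9 and 54.9 FPKM, against 0.337, 0.390 and 0.395 FPKM in EcCK, and rose by 6.72 ± 0.96, with EcSQ1 the lowest EcSQ library. SI65_09918 had 51.5, 45.9 and 18.9 FPKM, against 1.24, 0.979 and 5.10 FPKM in EcCK, and rose by 3.99 ± 0.90, with EcSQ3 the lowest. In all of them every EcSQ library was above every control. The files give no gene name for these genes, and the substrate of the enzymes is not known from the table.

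Further called genes with a described function included a transporter and an enzyme of pyruvate use. Ammonium transporter 1 (SI65_02845), which imports ammonium, had 4.59, 2.60 and 0.545 FPKM in EcSQ, against 27.2, 32.8 and 55.0 FPKM in EcCK, and fell by 3.89 ± 0.87 (adjusted p = 0.047). Pyruvate decarboxylase (SI65_05873), which turns pyruvate into acetaldehyde on the way to ethanol, had 4.70, 1.19 and 1.44 FPKM, against 72.1, 46.1 and 13.4 FPKM in EcCK, and fell by 4.16 ± 0.89 (adjusted p = 0.0406). The controls ran in opposite order for the pair, with EcCK3 the highest for the transporter and the lowest for the decarboxylase, and all EcSQ libraries were below all controls in both. Of the 98 tested glycolysis genes 4 fell (4.08%, against 1.87% of all genes) and 0 rose in edgeR, and 13 were lower in all 3 EcSQ libraries (13.3%, against 8.22%).

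Markers of growth stage were read because the label of the controls (mycelium) and the study's methods (spores) differ. Of 192 tested genes for conidiation and sexual development 1 rose (0.521%, against 1.72% of all genes) and 2 fell (1.04%, against 1.87%), 9 were higher (4.69%, against 6.12%) and 14 lower (7.29%, against 8.22%) in all 3 EcSQ libraries, and the median log2 fold change was 0.19. The member that rose was SI65_02895, and those that fell were SI65_07989 and SI65_06216, the latter given above with the trehalose genes. Of 35 tested genes for spore germination 1 rose and 1 fell (2.86% each). The regulator stuA (SI65_03573), which acts in the building of conidiophores, had 515, 731 and 380.1 FPKM in EcSQ, against 50.0, 90.9 and 425 FPKM in EcCK, so that EcCK3 was close to the EcSQ libraries and EcCK1 and EcCK2 were below them. A rodlet protein (SI65_07477), the hydrophobin coat of conidia in aspergilli, was chosen after its values were seen. It had 5772, 3886 and 6089.7 FPKM in EcSQ, against 451, 746 and 2592 FPKM in EcCK (log2 fold change 2.06 ± 0.69, adjusted p = 0.129). The regulator abaA (SI65_01598), chosen in the same way, had 9.15, 9.86 and 3.53 FPKM in EcSQ and 3.98, 4.70 and 7.03 FPKM in EcCK, with the groups overlapping. Single genes such as stuA, the rodlet gene and abaA do not stand for the list, whose counts are given above. The part of growth stage in the other differences was not tested.

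EcSQ were also set directly against EcRS, the fungus on *P. ginseng* roots. This comparison shares the EcSQ libraries with the one above but no EcCK library. Of the 8784 genes that averaged 1 FPKM or more here 0 rose and 3 fell in EcSQ by edgeR (0.0342% down), with 2670 at an unadjusted p under 0.05. DESeq2 called 1067 up and 458 down, and leaving out EcSQ3 gave 4365 up (49.7%) and 375 down (4.27%), together 54% of the genes. The median log2 fold change over all these genes was 0.84 with all libraries and 1.08 without EcSQ3. Without EcSQ3 the 2-fold line thus lay near the middle of all genes. The part of library scaling in that count was not tested. SI65_05213, a hypothetical protein with a zinc-binding term, had 26.8, 20.0 and 20.6 FPKM in EcSQ, against 237, 390.5 and 467 FPKM in EcRS. SI65_06060 had 31.8, 34.3 and 48.4 FPKM in EcSQ, against 512, 603 and 651 FPKM in EcRS, and SI65_07607 had 3.84, 3.64 and 3.11 FPKM, against 92.3, 79.9 and 66.5 FPKM in EcRS. In these 3 genes EcSQ1, EcSQ2 and EcSQ3 lay close together. All 3 also fell against EcCK, a comparison that shares the same EcSQ libraries, and in EcCK SI65_05213 had 2097, 2615 and 1214 FPKM, SI65_06060 296, 456 and 276 FPKM and SI65_07607 44.5, 36.1 and 22.1 FPKM.

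Genes of a class tended to lie beside each other on the contigs. Among the 753 genes lower in all 3 libraries 248 (32.9%) had an immediate neighbour of the same class, against 13.9% of all 10227 listed genes that bordered such a gene. For genes higher in all 3 libraries it was 108 of 561 (19.3%, against 10.6%), and for those higher in EcSQ1 and EcSQ2 alone 133 of 642 (20.7%, against 12.1%). These shares are descriptions, since neighbouring genes can share reads where they overlap, and the strand of the reads is not given in the sources used here. The longest unbroken runs held 5 genes among those lower in all 3 and 5 among those higher in EcSQ1 and EcSQ2 alone.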

How the data were processed

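RNA was taken with Trizol, sequenced on an Illumina instrument and, per the labels, processed with HISAT2 2.0, StringTie 1.3.0 and Bowtie 0.12.2. The authors deposited 1 table with an estimated count and an FPKM value per gene and library, over 54 contigs. It names no assembly, and coordinates are given as listed. Its FPKM are the authors' values, scaled to gene length and to a per-million factor, which was recovered from the genes with at least 200 counts and used as library size. Units outside the listed genes made up 12.1 to 14.9% in EcSQ, 12.1 to 14.1% in EcCK and 23.1 to 26.9% in EcRS. The estimated counts were rounded, since StringTie derives them from coverage, and tested with edgeR 4.0.16 (R 4.3.3) among genes averaging 1 FPKM or more. A fold change is on the fitted count scale and its error is the log2 fold change over the square root of the F statistic. limma 3.58.1 on log2(FPKM + 1) and DESeq2 1.42.0 were alternatives. The edgeR fit was also run on simulated counts with a fixed spread between replicates and no library set apart. That run does not show how the fit behaves on these libraries. Library ratios are log2((FPKM + 1)/(mean EcCK FPKM + 1)).

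The groups, members and 30 gene lists (KEGG pathways, GO terms and words of the gene descriptions) were chosen with earlier results of these data known. Genes named were the 10 called genes of largest change in each direction above 10 FPKM, the 8 clearest of each agreement class with and without a gene name, up to 4 per list, direction and class, the genes of highest mean, and genes the study names. From these fewer were used. Outside the rule, and chosen after their values were seen, are SI65_00449, SI65_08640, SI65_08847, SI65_09820, SI65_10113, SI65_05949, SI65_08569, SI65_07477, SI65_01598, the 3 genes called against EcRS, and the gene pairs and runs. Settings tried were library scaling, test, pseudocount, filter, fold, the libraries entering a fit (all 9, or with each left out) and a block for the replicate number. The authors' table holds no fold changes. No sequence is shown.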

Additional observations from a re-analysis of the deposited data

Results flagged for a closer look

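Against EcRS, 3 genes fell in EcSQ, so their levels differed between the libraries labelled with either root. Whether this goes with the root species or with the cultures or libraries was not tested. The log2 fold change of EcSQ over EcRS was -4.02 ± 0.38 for SI65_05213, -3.95 ± 0.33 for SI65_06060 and -4.49 ± 0.44 for SI65_07607 (SE, edgeR adjusted p = 0.0262 for each). Each kept its direction in all EcSQ libraries. None of the 3 was called when any single library other than EcSQ3 was left out.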

How the results depend on the processing

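The counts of called genes moved with the settings. Against 158 up and 171 down, the counts were 431 and 449 with TMM factors, 1274 and 1036 with DESeq2, 257 and 339 with limma on log2(FPKM + 1), 297 and 384 with a pseudocount of 5, 773 and 809 with quantile normalization and limma, 705 and 592 with all 9 libraries in one fit, and 998 and 894 with unadjusted p. Leaving out 1 library gave 0 to 912 up and 0 to 616 down, and without EcSQ3 together with TMM factors, chosen after seeing the data, 989 and 1035. With the replicate number as a block 9 and 25 genes were called, and 84 and 201 with TMM factors too. Deviations from the group means correlated at -0.05, -0.04 and -0.11 for same-numbered libraries and at -0.15 to 0.14 for different-numbered ones. With 3 libraries a group, and EcSQ3 apart, this cannot tell whether the numbers pair the libraries. Against EcRS (0 up, 3 down) DESeq2 called 1067 and 458, TMM factors 1 and 14, the block 0 down, and leaving out 1 library 0 to 4365 up and 0 to 375 down. Genes agreeing in all 3 libraries (561 and 753) were 966 and 1136 at 1.5-fold and 131 and 288 at 4-fold. Genes agreeing in EcSQ1 and EcSQ2 alone (642 and 66) were 1144 and 111 at 1.5-fold, 128 and 31 at 4-fold, 272 and 279 with TMM-rescaled FPKM, and 492 to 996 higher ones without 1 EcCK library. The causes of these moves were not tested.

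Of 81 genes followed under the alternatives none of the 56 called ones changed sign, and 4 others did. Nearly all called genes lay outside the control range in every EcSQ library, so a change of sign was unlikely from the start. The log2 fold change became -0.034 (block with TMM factors), -0.32 (limma), -0.39 (pseudocount 0.1) and -0.12 (pseudocount 5) for SI65_08016, and -0.057 (limma) and -0.17 (pseudocount 0.1) for SI65_04304. For SI65_05982 it became 0.46 (DESeq2), 0.30 (TMM factors), and -1.68 to 0.19 over the fits without 1 library (above 0 without EcSQ2, at 0.036, and without EcCK1). For SI65_07647 it became -0.35 (block), -0.51 (block with TMM factors), -0.89 (limma, pseudocount 0.1 and quantile normalization alike), -0.87 (pseudocount 5) and -0.082 to 0.96 over the fits without 1 library (below 0 without EcSQ1). With 3 libraries a group and EcSQ3 apart from the others, a gene that missed the threshold is not shown to be equal.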

Other observations

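Part of contig 1 appears to be listed as near-identical gene pairs. A search chosen after seeing the data found 80 pairs among the 9160 genes with the same coding length and FPKM within 0.15 on the log2 scale in all 9 libraries, with 0.01 FPKM added. Of these, 67 pairs lay within contig 1, between positions 4767615 and 5815026, and in all 67 the partners were on opposite strands. The 153 genes in the pairs include 0 genes called up and 6 called down by edgeR, 6 higher and 13 lower in all 3 EcSQ libraries, and 13 higher in EcSQ1 and EcSQ2 alone. Over all 9160 genes the shares were 1.72% called up and 1.87% called down, 6.12% higher and 8.22% lower in all 3, and 7.01%. These few counts are not read as a result about the pairs. Both genes described as PIL1, an eisosome protein in yeast, are such a pair. SI65_01834 had 36.2, 40.9 and 18.9 FPKM in EcSQ, against 291, 246 and 128 FPKM in EcCK, and SI65_02047 had 36.2, 40.2 and 19.2 FPKM, against 289, 246 and 126 FPKM in EcCK, and both fell (log2 fold change -2.79 ± 0.55 and -2.79 ± 0.55). Reads of such pairs may be split or shared, so the level of each copy is uncertain and their calls are not independent. None of the genes given with values in the report above is in a pair found by this search.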
